A study of Mus musculus with 2 samples.

Results

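Non-classical monocytes are phagocytes of the blood that crawl along the inner face of small vessels and are therefore also called patrolling monocytes. They arise from classical Ly6C-high monocytes, depend on the nuclear receptor NR4A1 and on signals through the CSF1 receptor, and take up particles, lipid and debris, including tumour material in vessels. In the mouse they are marked by ACE, the angiotensin-converting enzyme, by the receptors TREML4 and CD300E, and by the CSF1 receptor gene Csf1r.

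The cells described here were chosen by raw UMI counts (unique molecular identifiers, which count captured mRNA molecules). A cell was taken when its Ace, Treml4 and Cd300e UMIs summed to at least 2 and its Lyz2 and Csf1r UMIs to at least 2, Lyz2 being the lysozyme gene of myeloid cells. It was also required to hold at most 2 UMIs over C1qa, C1qb and C1qc, which mark macrophages, and at most 2 over Spp1, Arg1 and Gpnmb, which mark tumour-associated macrophages. Cells with any UMI of the T cell genes Cd3d, Cd3e and Cd3g, of the B cell gene Cd79a or of the plasmacytoid dendritic cell gene Siglech were left out. The rule found 186 of 12618 cells, 38 in the Vsig4 KO and 148 in the WT library. They are called Ace/Treml4/Cd300e cells below, and the levels of the genes in the rule are a description of that choice.

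The cells came from livers of Vsig4-/- and WT mice bearing metastatic growths of the mouse melanoma line B16F10. Live CD45+ single cells were sorted after digestion with collagenase IV and DNase I, and 10x Genomics 5′ gene expression libraries were made. There was 1 library per genotype, and the labels do not give the number, age or sex of the mice in it. VSIG4 is a complement receptor of Kupffer cells, the resident liver macrophages, and the series title concerns its binding to CD5 on T cells. Without replicates no test was possible, so every interval below is a 95% interval of counting error only and says nothing of the spread between mice, sorts or libraries.

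The Vsig4 KO library held 5746 cells with a median of 3306 UMIs and the WT library 6872 cells with a median of 3073 UMIs, after barcodes under 200 genes, under 500 UMIs or over 10% mitochondrial UMIs were dropped. The Ace/Treml4/Cd300e cells held 282750 UMIs in the Vsig4 KO and 858735 UMIs in the WT library. Their median depth was 6464.5 UMIs (2350 to 20161) in Vsig4 KO and 5431 UMIs (912 to 15244) in WT. The libraries shared 54 barcodes, which belonged to 0 of the Vsig4 KO and 1 of the WT Ace/Treml4/Cd300e cells. Vsig4 itself, gene ENSMUSG00000044206 on the minus strand of chromosome X (mm10, 96247203 to 96293438), had 0 UMIs in these cells of either genotype, so it does not check the labels here. In C1q-high macrophages it was at 2.35 CPM in Vsig4 KO and 16.3 CPM in WT, where CPM (UMIs per 1000000) is taken on UMIs summed over the cells of a population.

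Ace/Treml4/Cd300e cells were scarcer in the Vsig4 KO than in the WT library. They were 38 of 5746 cells, or 0.661% (exact Clopper-Pearson interval 0.468 to 0.907), in Vsig4 KO and 148 of 6872 cells, or 2.15% (1.82 to 2.53), in WT. The ratio of the shares was 0.307 (0.209 to 0.441). Myeloid cells as a whole, defined by Lyz2 and Csf1r and by the absence of the lymphoid and Siglech UMIs, also held a smaller share, with 9.80% of Vsig4 KO and 20.1% of WT cells (ratio 0.487, 0.441 to 0.538). Within myeloid cells the Ace/Treml4/Cd300e cells were 6.75% (4.82 to 9.15) in Vsig4 KO and 10.7% (9.13 to 12.5) in WT, a ratio of 0.630 (0.429 to 0.905).

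Other monocytes and macrophages of the same libraries were set beside them. Classical monocytes, chosen by at least 2 Ly6c2 and 1 Ccr2 UMIs and no Ace, Treml4 or Cd300e UMI, were 22.4% of myeloid cells in Vsig4 KO and 19.1% in WT (ratio 1.17, 0.940 to 1.45). C1q-high macrophages, chosen by at least 10 C1q UMIs, were 141 of 563 myeloid cells in Vsig4 KO and 218 of 1382 in WT (1.59, 1.28 to 1.97). The Ace/Treml4/Cd300e cells were the only population of these 3 whose share of myeloid cells was below WT in the Vsig4 KO library. The sort and the digestion can set such shares, and their part in the difference was not tested.

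**Figure D1:**
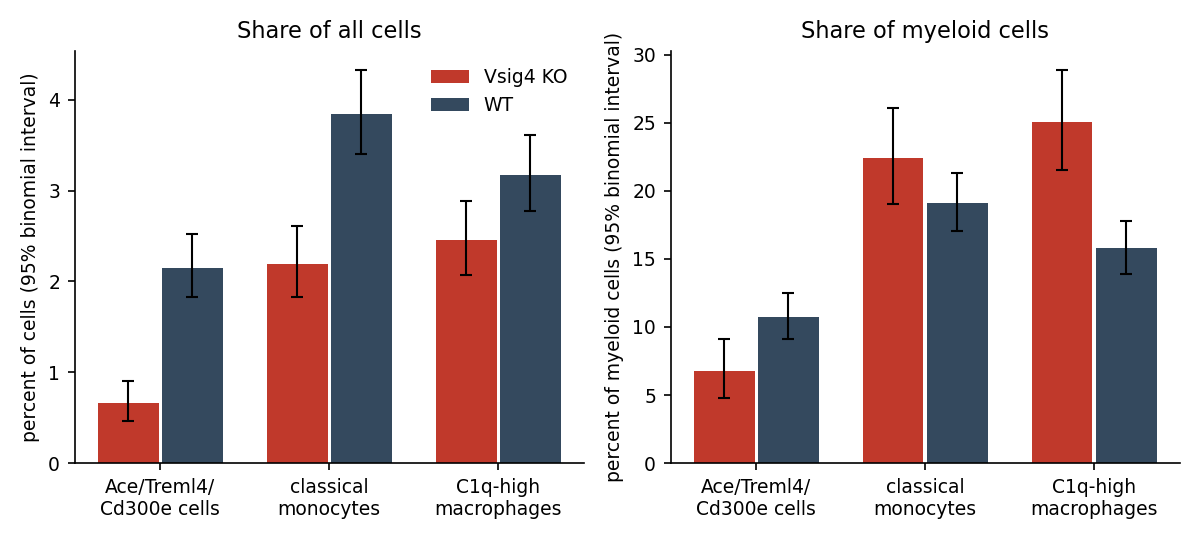
Percent of all cells (left) and of myeloid cells (right) in 3 populations of the Vsig4 KO (red) and WT (blue) libraries, with 95% exact binomial intervals as error bars. The Ace/Treml4/Cd300e cells stood at 0.661% of Vsig4 KO and 2.15% of WT cells, and at 6.75% and 10.7% of the myeloid cells of the same libraries.

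By other genes of the same cell type the share of all cells was also lower. Adgre4, Eno3, Fabp4, Pglyrp1, Ear2 and Cd300ld are further markers of non-classical monocytes that the rule did not use. A sum of at least 2 UMIs over these 6 genes, with the remaining criteria kept, found 106 Vsig4 KO and 276 WT cells, or 1.84% and 4.02%, a ratio of 0.459 (0.364 to 0.577). Within myeloid cells, however, these cells were 18.8% (15.7 to 22.3) in Vsig4 KO and 20.0% (17.9 to 22.2) in WT, a ratio of 0.943 (0.746 to 1.18). Of the Ace/Treml4/Cd300e cells, 27 of 38 in Vsig4 KO (71.1%) and 109 of 148 in WT (73.6%) met this second criterion. They were 27 of the 106 Vsig4 KO and 109 of the 276 WT cells that it found. Most cells chosen by the 6 other markers were thus not Ace/Treml4/Cd300e cells, here and in the comparisons below.

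The markers of the rule were not spread evenly over the cells. Ace gave a UMI in 28 of 38 Vsig4 KO and 128 of 148 WT cells, Treml4 in 26 and 82, and Cd300e in 5 and 17. Treml4 without Ace marked 10 of 38 cells (26.3%, 13.4 to 43.1) in Vsig4 KO and 19 of 148 (12.8%, 7.91 to 19.3) in WT. Of these, 4 cells in Vsig4 KO and 2 in WT carried dendritic cell genes and are described below. At the threshold, cells with a marker sum of 1 that met all other criteria numbered 27 in Vsig4 KO and 99 in WT, and those with a sum of 2 numbered 16 and 52. Just outside, Adgre4, an adhesion G protein-coupled receptor, was at 42.6 CPM in Vsig4 KO and 81.4 CPM in WT, just inside at 74.8 and 142 CPM, and in cells with a sum of 4 or more at 331 and 308 CPM.

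Several genes outside the rule carried the profile of non-classical monocytes in both libraries. Adgre4 was at 187 CPM in Vsig4 KO and 238 CPM in WT Ace/Treml4/Cd300e cells, against 27.4 and 27.5 CPM in classical monocytes of the same libraries. Ear2, a ribonuclease of eosinophils and monocytes, was at 95.5 and 206 CPM, against 24.6 and 12.9 CPM in classical monocytes. Itgal, the alpha chain of the integrin LFA-1 with which these cells hold on to the vessel wall, was at 361 and 607 CPM, against 175 and 203 CPM. Spn, which encodes CD43, was at 99.0 and 108 CPM, against 34.0 and 31.8 CPM.

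Cx3cr1, the fractalkine receptor, was less distinctive, at 149 CPM in the Ace/Treml4/Cd300e cells of each library and at 93.6 CPM in Vsig4 KO and 112 CPM in WT classical monocytes. In the other direction, Ly6c2, which encodes the Ly6C antigen of classical monocytes, was at 552 CPM in Vsig4 KO and 364 CPM in WT Ace/Treml4/Cd300e cells. It was at 1286 and 1450 CPM in classical monocytes, which were chosen by Ly6c2 UMIs, so their higher level was set by the choice. At a marker sum of 4 or more Ly6c2 was at 916 CPM in Vsig4 KO and 234 CPM in WT, against 664 and 699 CPM at a sum of 0. A single cell, with 87 Ly6c2 UMIs, held 55.8% of the Ly6c2 UMIs of the Vsig4 KO Ace/Treml4/Cd300e cells. Its marker sum was 4, so the 916 CPM rest mostly on it. No other Vsig4 KO cell with a sum of 4 or more held over 4 Ly6c2 UMIs. Fn1, the fibronectin gene, was at 202 and 417 CPM, against 997 and 1081 CPM in classical monocytes. Ccr2, also a gene of classical monocytes, was common in the Ace/Treml4/Cd300e cells too, with a UMI in 22 of 38 Vsig4 KO and 100 of 148 WT cells. At a marker sum of 4 or more Ccr2 was at 234 CPM in Vsig4 KO and 386 CPM in WT, against 447 and 499 CPM at a sum of 0. C1qb was at 10.6 and 5.82 CPM in the Vsig4 KO and WT Ace/Treml4/Cd300e cells, against 3417 and 3137 CPM in C1q-high macrophages. The rule limits C1qb and the macrophages were chosen by it, so this gap was set by the choice of cells.

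To compare detection at equal depth, each cell was thinned to 1000 UMIs, which left out 0 Vsig4 KO and 2 WT Ace/Treml4/Cd300e cells. An Ace UMI was then found in 28.9% of the Vsig4 KO and 43.2% of the WT cells (73.7% and 86.5% before thinning), against 0% and 0.0886% of B cells. Gngt2, a G protein gamma subunit found in these monocytes, was detected in 39.5% of Vsig4 KO and 58.9% of WT cells, against 8.94% and 8.50% of B cells. Adgre4 was detected in 21.1% and 19.9%, against 0% of the B cells of either library.

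Among genes with at least 50 UMIs, the 20 that stood highest over all other cells, by the lower of the folds in the libraries, were led by Ace, Treml4, Adgre4 and Ear2. Next came Pla2g7, a secreted phospholipase that degrades platelet-activating factor, Lst1, a small transmembrane adaptor of leukocytes, and the lectin-like receptor gene Klra2. The 20 genes also held Clec4a1 and Clec4a3, C-type lectin receptors, Pparg, a lipid-sensing nuclear receptor, Slc11a1, the phagosomal metal transporter NRAMP1, and Chil3, a chitinase-like protein that classical monocytes carried at higher levels. Since the cells were chosen by their counts, this order is a description.

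**Figure D2:**
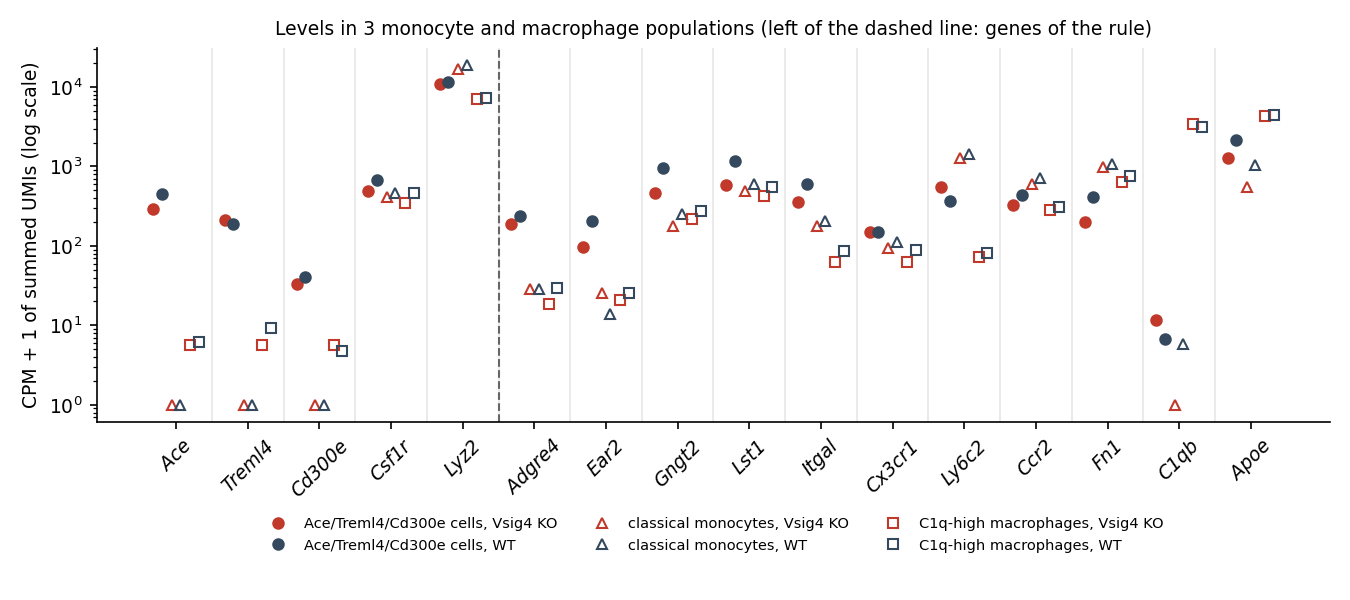
Levels of 16 genes, as CPM + 1 on a log scale, in the Vsig4 KO (red) and WT (blue) libraries. Filled circles are Ace/Treml4/Cd300e cells, triangles classical monocytes and squares C1q-high macrophages. Genes left of the dashed line belong to the rule, and so does C1qb to its right. Ly6c2 and Ccr2 were used to choose the classical monocytes. Adgre4 and Ear2 stood above the other populations in both libraries. C1qb was at 10.6 and 5.82 CPM in the Vsig4 KO and WT Ace/Treml4/Cd300e cells, and its distance from the C1q-high macrophages was set by the choice of cells.

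A few cells went against the label. Flt3, a growth factor receptor of dendritic cells, with at least 2 UMIs, together with at least 10 UMIs over Clec9a, Xcr1, Naaa, Wdfy4 and Cadm1, genes of type 1 conventional dendritic cells (cDC1), marked 4 of 38 Vsig4 KO and 2 of 148 WT cells. None of these 6 cells held an Ace UMI, and each entered through 2 to 4 Treml4 UMIs. They were deep cells in Vsig4 KO, with 14497 to 18599 UMIs each, and made up 65975 UMIs or 23.3% of the Vsig4 KO sum, against 17114 UMIs or 1.99% of the WT sum. The main results below are therefore also given without these cells, an alternative added after the data had been seen. Without them 34 Vsig4 KO and 146 WT cells remained, a ratio of shares of 0.279 (0.186 to 0.407).

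Markers of several other lineages were at or near 0, while others were not. The Kupffer cell markers Vsig4, Clec4f, Timd4, Marco and Cd5l gave 1 UMI in 1 cell in each library, the melanoma markers 0 UMIs in Vsig4 KO and 1 in WT, and the erythroid markers 0 in both. T cell markers gave 1 UMI in Vsig4 KO and 15 in WT, B cell markers 2 and 12, and hepatocyte markers 1 and 12. Markers of natural killer (NK) cells gave 87 UMIs in 1 cell of Vsig4 KO and 150 UMIs in 10 cells of WT, 73 of them in 1 cell. The Vsig4 KO cell was the deepest of its library's Ace/Treml4/Cd300e cells, with 20161 of their 282750 UMIs. It stayed in the main sums below and in those without the Flt3 cells. Markers of conventional dendritic cells gave 66 UMIs in 7 Vsig4 KO cells and 56 UMIs in 17 WT cells. Without the Flt3 cells they still gave 5 UMIs in 3 Vsig4 KO cells and 42 UMIs in 15 WT cells, 12 of them in 1 cell. Markers of plasmacytoid dendritic cells gave 59 UMIs in 47.4% of Vsig4 KO and 161 UMIs in 52.0% of WT cells. Summed macrophage markers were at 1344 CPM in Vsig4 KO and 2258 CPM in WT and neutrophil markers at 84.9 and 111 CPM. The macrophage sum was mostly Apoe. No doublet caller was run, so these values are the only check on mixed cells, and a partial one. The rule itself set Cd3d, Cd3e, Cd3g, Cd79a and Siglech to 0 and limited C1qa, C1qb, C1qc, Spp1 and Gpnmb. Low counts of the lists that hold these genes therefore cannot show that mixed cells are absent.

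The Ace/Treml4/Cd300e cells of both libraries spanned a wide range of MHC class II, the molecules that present peptides to CD4 T cells. The summed level of H2-Aa, H2-Ab1, H2-Eb1 and Cd74 had a median of 3059 CPM per cell in Vsig4 KO and 2203 CPM in WT, with 7 of 38 and 24 of 148 cells at 0. Below 2000 CPM lay 17 Vsig4 KO (44.7%, 28.6 to 61.7) and 71 WT cells (48.0%, 39.7 to 56.3). At or above 10000 CPM lay 16 Vsig4 KO (42.1%, 26.3 to 59.2) and 53 WT cells (35.8%, 28.1 to 44.1), of which 4 and 2 were the Flt3 cells. These limits, and the genes named in the next paragraphs, were chosen after the values had been seen. They cut a continuous range, and 4 Vsig4 KO and 12 WT cells lay within 1.5-fold of the lower limit and 3 and 10 within 1.5-fold of the upper one.

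**Figure D3:**
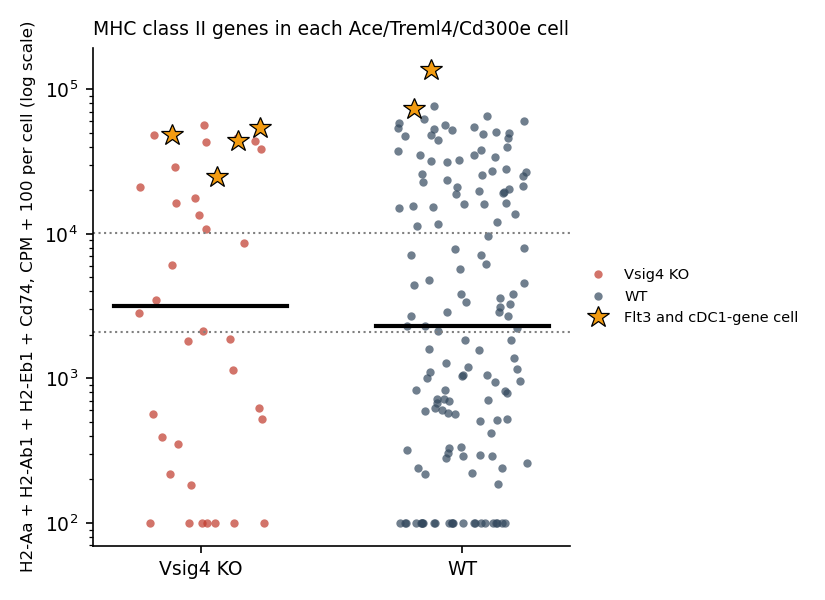
Summed CPM + 100 of H2-Aa, H2-Ab1, H2-Eb1 and Cd74 (log scale) in each Ace/Treml4/Cd300e cell of the Vsig4 KO (left) and WT (right) libraries; black bars are medians, dotted lines the limits of 2000 and 10000 CPM, and stars the Flt3 cells. Cells of both genotypes lie below the lower and above the upper limit, and the medians were 3059 CPM in Vsig4 KO and 2203 CPM in WT.

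Some genes outside the sum also differed between the upper and the lower end of that range. Without the Flt3 cells, 2812 genes could be compared between cells at the upper and at the lower end. Of these, 2.28% were at least 1.5-fold higher and 4.52% at least 1.5-fold lower at the upper end in both libraries. Another 70 genes were past 1.5-fold in opposite directions, among them Jun, an early response transcription factor, at 0.421 in Vsig4 KO and 1.60 in WT, and Cxcl1, at 0.139 and 4.70. Of 8 measured MHC class II genes 7 were higher, which includes the 4 that make up the sum. H2-DMb1, a chain of the molecule that loads peptides onto class II, was at 426 against 21.9 CPM in Vsig4 KO and at 515 against 40.5 CPM in WT. Ciita, the master activator of class II genes, gave 11 against 0 UMIs in Vsig4 KO and 69 against 4 UMIs in WT.

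Genes beyond antigen presentation were among those past 1.5-fold in both libraries. Clec4n, which encodes the fungal receptor dectin-2, was higher at the upper end by 3.27-fold in Vsig4 KO and 3.26-fold in WT, and Tmem176a, a cation channel gene of antigen-presenting cells, by 3.65-fold and 4.25-fold. Genes of classical monocytes were lower there: 8 of 17 measured members of that list, against 2 that were higher, Tmem176a and Tmem176b. Vcan, which encodes the matrix proteoglycan versican, was at 0.117 of the lower end's level in Vsig4 KO and 0.138 in WT. Slpi, a secreted protease inhibitor outside that list, was at 0.0747 and 0.113. Of 26 measured genes of the non-classical monocyte list 4 were lower there and 1 was higher. The 4 lower ones were Pglyrp1, at 0.111 and 0.0782, Spn, at 0.498 and 0.251, Ear2, at 0.0866 and 0.631, and Fabp4, with 0 against 11 UMIs in Vsig4 KO and a ratio of 0.187 in WT. The higher one was Itgax, which encodes the integrin CD11c. Treml4, at 0.797 and 0.920, and Adgre4, at 0.738 and 1.01, stayed within 1.5-fold in both libraries. Ace and Gngt2 did so in WT only. Ace was at 0.498 (0.295 to 0.820) in Vsig4 KO and 0.929 in WT, and Gngt2 at 0.664 and 0.970.

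The promoters of class II genes hold a shared module that CIITA acts through, whose Y box is bound by NF-Y and has the core TGATTGG. The promoters of H2-Aa, H2-Eb1 and H2-DMb1 are shown because these genes mark the upper end of the range, and because the core lies at a similar place in each. The windows run from 250 bases before to 50 bases after the RefSeq start of each gene on GRCm38.p6, and capitals mark the core, searched on both strands: 50 bases before the start in H2-Aa (chr17:34287774-34288073, minus strand), 61 in H2-Eb1 (chr17:34305617-34305916, plus strand) and 63 in H2-DMb1 (chr17:34152941-34153240, plus strand).
H2-Aa: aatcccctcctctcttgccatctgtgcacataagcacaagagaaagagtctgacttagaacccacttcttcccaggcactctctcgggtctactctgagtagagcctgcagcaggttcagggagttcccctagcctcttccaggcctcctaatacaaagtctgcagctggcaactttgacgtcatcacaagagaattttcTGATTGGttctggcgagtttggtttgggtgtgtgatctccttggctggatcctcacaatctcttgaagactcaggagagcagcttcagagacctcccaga
H2-Eb1: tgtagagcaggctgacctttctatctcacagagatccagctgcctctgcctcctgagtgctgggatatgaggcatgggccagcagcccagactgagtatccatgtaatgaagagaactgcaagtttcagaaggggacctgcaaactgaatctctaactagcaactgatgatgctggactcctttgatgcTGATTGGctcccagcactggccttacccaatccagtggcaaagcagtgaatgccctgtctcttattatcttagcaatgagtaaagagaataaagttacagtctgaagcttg
H2-DMb1: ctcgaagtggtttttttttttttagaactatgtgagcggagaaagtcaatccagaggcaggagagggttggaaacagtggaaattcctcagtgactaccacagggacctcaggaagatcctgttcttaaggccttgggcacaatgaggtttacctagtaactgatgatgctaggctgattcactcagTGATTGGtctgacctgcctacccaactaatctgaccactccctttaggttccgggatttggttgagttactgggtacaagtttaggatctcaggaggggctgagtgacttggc
The core was found in 2568 of 32851 RefSeq promoter windows (7.82%). The windows of H2-DMa did not hold it, and H2-Ab1 and Ciita are named only.

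The Vsig4 KO and WT libraries were compared gene by gene as the ratio of CPM, Vsig4 KO over WT, of UMIs summed over the Ace/Treml4/Cd300e cells, and a gene was counted as apart at 1.5-fold. Of 3406 genes with at least 50 UMIs, 264 (7.75%) were at least 1.5-fold higher and 419 (12.3%) at least 1.5-fold lower in Vsig4 KO. Without the Flt3 cells the numbers were 309 of 3208 genes (9.63%) higher and 406 (12.7%) lower. For gene lists, which use members with at least 20 UMIs, the background was 801 of 6066 genes (13.2%) higher and 1025 (16.9%) lower, or 14.0% and 19.2% without the Flt3 cells. The median log2 ratio over all genes was -0.04, with 10 CPM added to each value. List counts below are to be read against these shares.

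Several genes that mark non-classical monocytes were lower in Vsig4 KO. Gngt2 was at 467 CPM in Vsig4 KO and 953 CPM in WT, a ratio of 0.490 (0.405 to 0.590), or 0.608 without the Flt3 cells. Lst1 was at 591 and 1166 CPM, a ratio of 0.507 (0.428 to 0.597; 0.636 without the Flt3 cells). Itgal was at 0.595 (0.476 to 0.736; 0.746), but at 1.002 when the cells were thinned to 1000 UMIs, and Ear2 at 0.463 (0.297 to 0.697; 0.592). Of the genes in the rule, Ace was at 0.658 (0.513 to 0.836; 0.841), Csf1r at 0.732 (0.604 to 0.882; 0.915) and Treml4 at 1.12 (0.817 to 1.51; 1.29).

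Other genes of the program were close to WT once the Flt3 cells were left out. Adgre4 was then at a ratio of 1.01, Cx3cr1 at 1.21 and Spn at 1.13. Nr4a1, the transcription factor these cells depend on and also an early response gene, was higher, at 1652 CPM in Vsig4 KO and 1281 CPM in WT (1.29, 1.15 to 1.44; 1.49 without the Flt3 cells). Of 29 measured genes of the non-classical monocyte list, 2 were at least 1.5-fold higher and 10 lower (median log2 ratio -0.33). Without the Flt3 cells 4 (13.8%) were higher and 7 (24.1%) lower (-0.13), near the background of 14.0% and 19.2%. With a marker sum of at least 3 the median was 0.06.

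Transcription factors of monocytes had 2 of 23 genes higher and 6 lower (-0.19), or 1 higher and 6 lower without the Flt3 cells (-0.18). Klf2, a factor induced by blood flow in endothelium and expressed in resting monocytes, was at 251 CPM in Vsig4 KO and 422 CPM in WT (0.596, 0.455 to 0.770; 0.654 without the Flt3 cells), and at a ratio of 0.651 in classical monocytes. Cebpb, which these monocytes need, was at 0.888 (0.809 to 0.974; 1.13). Among adhesion genes 5 of 23 were higher and 1 lower (0.10), or 4 higher and 3 lower without the Flt3 cells (0.16). Itgb2, the beta chain that pairs with Itgal, was at 591 and 374 CPM in Vsig4 KO and WT (1.58, 1.30 to 1.91; 1.77), in the opposite direction to Itgal, and Cd44, a receptor of hyaluronan, was at 976 and 729 CPM (1.34, 1.16 to 1.55; 1.62).

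Genes of iron storage and of heme breakdown were lower in the Vsig4 KO Ace/Treml4/Cd300e cells, with 6 of 7 measured genes at least 1.5-fold lower and 0 higher (median -0.78). Macrophage markers, a list whose level was mostly Apoe, had a lower median per cell in Vsig4 KO, 894 CPM against 1821 CPM in WT. Without the Flt3 cells the medians were 1108 and 1842 CPM. The rule limits C1qa, C1qb, C1qc, Spp1 and Gpnmb of this list, so it is not a signal separate from the Apoe ratio below. The part of macrophage RNA in the iron and heme result and in the lipid result below was not tested. Fth1, the ferritin heavy chain, was at 3908 CPM in Vsig4 KO and 7105 CPM in WT (0.550, 0.515 to 0.587; 0.641 without the Flt3 cells), and the median per cell was 2578 and 3805 CPM. Ftl1, the ferritin light chain, was at 3586 and 5526 CPM (0.649, 0.606 to 0.695; 0.754). Hmox1, the enzyme that opens the heme ring, was at 110 and 199 CPM (0.551, 0.363 to 0.811; 0.708), in 11 and 53 cells. Hpgd, which is counted among the 6 but degrades prostaglandins, was at 49.5 and 139 CPM (ratio 0.357; 0.428 without the Flt3 cells), in 9 and 54 cells.

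In classical monocytes these ratios were 1.20 for Fth1, 1.03 for Ftl1 and 1.84 for Hmox1, and the list's median was 0.11. Without the Flt3 cells 3 of the 7 genes remained past 1.5-fold (median -0.47). With the cells chosen by the 6 other markers, Fth1 was at 0.982 and the list's median at -0.13.

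Lipid genes, 1 of them the macrophage marker Apoe, had 8 of 17 at least 1.5-fold lower and 1 higher (-0.48), or 6 lower and 1 higher without the Flt3 cells (-0.28). Apoe, the lipid carrier apolipoprotein E, was at 1266 CPM in Vsig4 KO and 2180 CPM in WT (0.581, 0.517 to 0.651; 0.744), with medians per cell of 795 and 1703 CPM. In classical monocytes Apoe was at a ratio of 0.532. Fabp5, a fatty acid binding protein, was at 42.4 and 139 CPM (0.306, 0.154 to 0.555; 0.359). The summed level of the list had a median of 3252 CPM per cell in Vsig4 KO and 4757 CPM in WT.

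Oxidative phosphorylation showed a small shift over many genes. Of 33 measured subunits 0 were at least 1.5-fold higher and 4 lower, a share near the background, and the median was -0.25, or -0.32 without the Flt3 cells. Atp5e, a subunit of ATP synthase, was at 753 CPM in Vsig4 KO and 1060 CPM in WT (0.711, 0.609 to 0.826; 0.679 without the Flt3 cells). Cox8a, a subunit of cytochrome c oxidase, was at 580 and 800 CPM (0.725, 0.608 to 0.861; 0.699). Per cell the summed level had a median of 9572 CPM (quartiles 7441 to 11406) in Vsig4 KO and 12436 CPM (10296 to 14486) in WT. The quartile ranges overlapped between 10296 and 11406 CPM.

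Glycolysis and hypoxia genes had 0 of 21 members higher and 7 lower (-0.41), or -0.31 without the Flt3 cells. Eno1, the enolase of glycolysis, was at 428 CPM in Vsig4 KO and 657 CPM in WT (0.652, 0.531 to 0.794; 0.727), but at a ratio of 1.04 with the 6 other markers and of 1.23 when the cells were thinned to 1000 UMIs. This list's median was 0.14 in classical monocytes, and it was 0.03 when the cells were chosen by the 6 other markers.

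Among receptors for the constant part of antibodies a few single genes were lower. Of 10 measured Fc receptor genes 3 were at least 1.5-fold lower and 0 higher (-0.21). Without the Flt3 cells 2 of 10 were lower (-0.18), a share near the background of 19.2%. Fcer1g, the shared signalling chain of activating Fc receptors, was at 2306 CPM in Vsig4 KO and 3330 CPM in WT (0.692, 0.635 to 0.754; 0.844 without the Flt3 cells). Fcgr2b, the inhibitory IgG receptor, was at 237 and 420 CPM (0.564, 0.428 to 0.733; 0.559), and Fcgr4, the activating receptor typical of non-classical monocytes, at 46.0 and 119 CPM (0.387, 0.199 to 0.692; 0.495). In classical monocytes Fcer1g was at 0.894 and Fcgr2b at 0.940. Lysosome and cathepsin genes had 1 of 19 higher and 4 (21.1%) lower (-0.23), near the background of 16.9% lower. Without the Flt3 cells 0 were higher and 2 (10.5%) lower (-0.24), below the background of 19.2% lower.

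**Figure D4:**
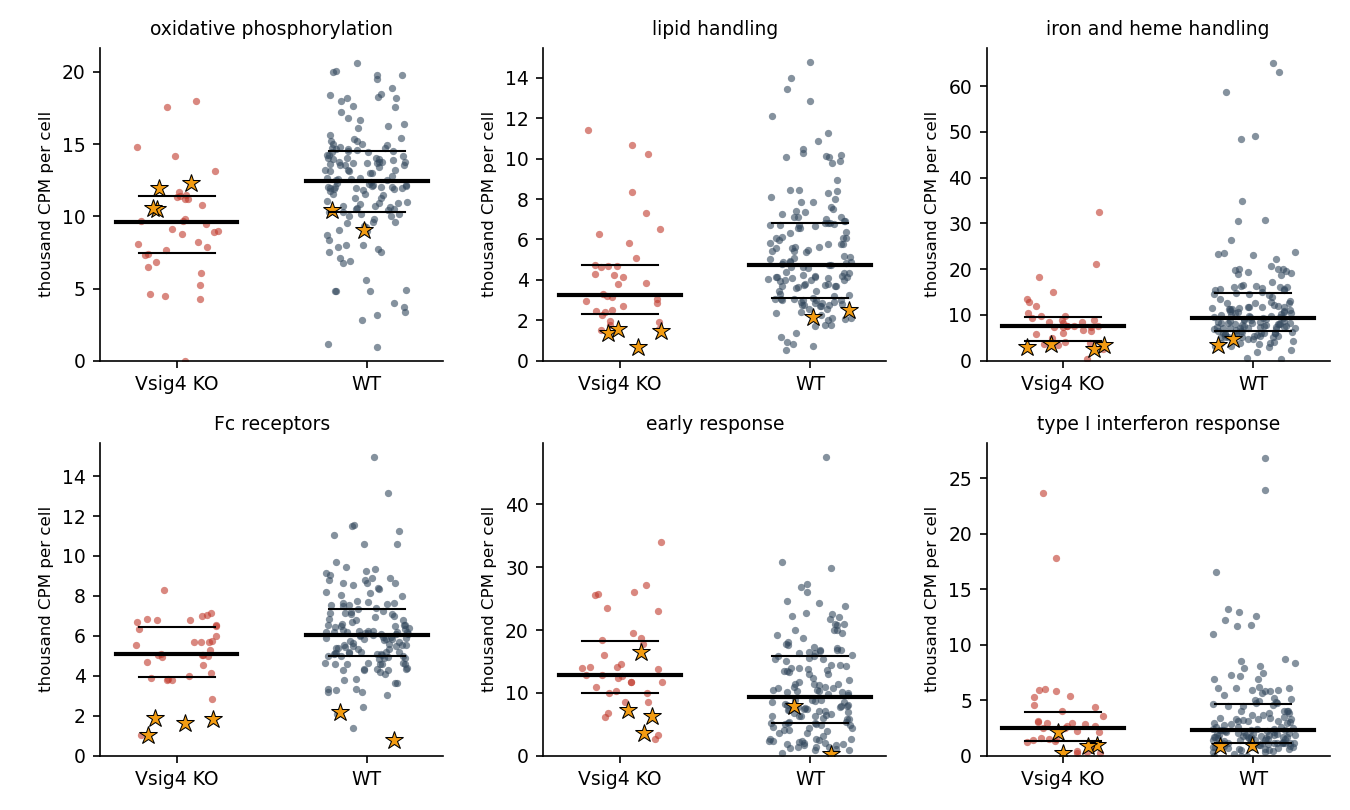
Summed level of 6 gene lists in each Ace/Treml4/Cd300e cell, in units of 1000 CPM, for the Vsig4 KO (left, red) and WT (right, blue) libraries; thick bars are medians, thin bars quartiles and stars the Flt3 cells. The oxidative phosphorylation median was 9572 CPM in Vsig4 KO and 12436 CPM in WT, the early response median 12862 and 9301 CPM, and the interferon medians lay close together at 2478 and 2307 CPM.

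Of 19 measured early response genes 4 were at least 1.5-fold higher in the Vsig4 KO cells and 0 lower, with a median of 0.24, or 0.36 without the Flt3 cells. The 4 were Dusp1 and the transcription factor genes Fosb, Egr1 and Egr2. Dusp1, a phosphatase that switches off MAP kinases, was at 1560 CPM in Vsig4 KO and 1038 CPM in WT (1.503, 1.34 to 1.69; 1.73), with medians per cell of 1620 and 604 CPM. Zfp36, which encodes tristetraprolin and destabilises cytokine mRNAs, was at 1737 and 1294 CPM (1.34, 1.20 to 1.49; 1.52), short of 1.5-fold in all cells, with medians per cell of 1448 and 736 CPM. Jun, by contrast, was at 891 and 1205 CPM (0.739, 0.642 to 0.849; 0.851).

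Classical monocytes held like ratios for these genes, with 1.49 for Dusp1, 1.37 for Zfp36 and 0.777 for Jun, and a list median of 0.28. Early response genes are also known to be induced when tissue is digested, and the part of that step was not tested. The heat-shock list had 0 of 13 genes higher and 2 lower (-0.18), a share near the background of 16.9%. Without the Flt3 cells 4 were lower (-0.34), where the background was 19.2%. Hspa1a, an inducible chaperone, was at 1111 CPM in Vsig4 KO and 1736 CPM in WT (0.640, 0.565 to 0.723, and 0.729 without the Flt3 cells). Its ratio was 1.12 when the cells were thinned to 1000 UMIs.

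Of the NF-kB targets, 2 feedback genes passed 1.5-fold. Nfkbiz, a nuclear regulator of NF-kB, was at 845 CPM in Vsig4 KO and 528 CPM in WT (1.60, 1.36 to 1.88; 2.04 without the Flt3 cells), in 27 and 94 cells. Tnfaip3, which encodes the NF-kB inhibitor A20, was at 676 and 396 CPM (1.71, 1.42 to 2.04; 2.19). Nfkbia, the inhibitor IkB-alpha, was at 2002 and 1484 CPM (1.35, 1.22 to 1.49; 1.70). The list as a whole had 2 of 15 genes higher and 2 lower (0.18), shares near the background, or 4 higher and 1 lower without the Flt3 cells (0.32). Its median was -0.28 when the cells were thinned to 1000 UMIs, and 0.52 in classical monocytes.

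Inflammatory cytokines and chemokines had 6 of 19 genes higher and 1 lower (0.11), or 9 higher and 2 lower without the Flt3 cells (0.38). Without the cell with the most UMIs of type I interferon genes in each library, 5 were higher and 4 lower (0.14). These were 26.3% and 21.1% of the list, where 12.7% and 17.6% of all genes were. Il1b, the cytokine interleukin-1 beta, was at 3480 CPM in Vsig4 KO and 2585 CPM in WT (1.35, 1.25 to 1.45; 1.67), in 28 and 89 cells. Cells with an Ace UMI did not share this difference: among them Il1b was at a ratio of 0.851, and with a marker sum of at least 3 it was at 0.875. In classical monocytes it was at 2.33. Cxcl2, a neutrophil attractant, was at 2960 and 1585 CPM (1.87, 1.71 to 2.04; 2.39), but 1 cell held 37.5% of its Vsig4 KO UMIs. It was found in 15 and 49 cells, and with a marker sum of at least 3 the ratio was 1.101.

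**Figure D5:**
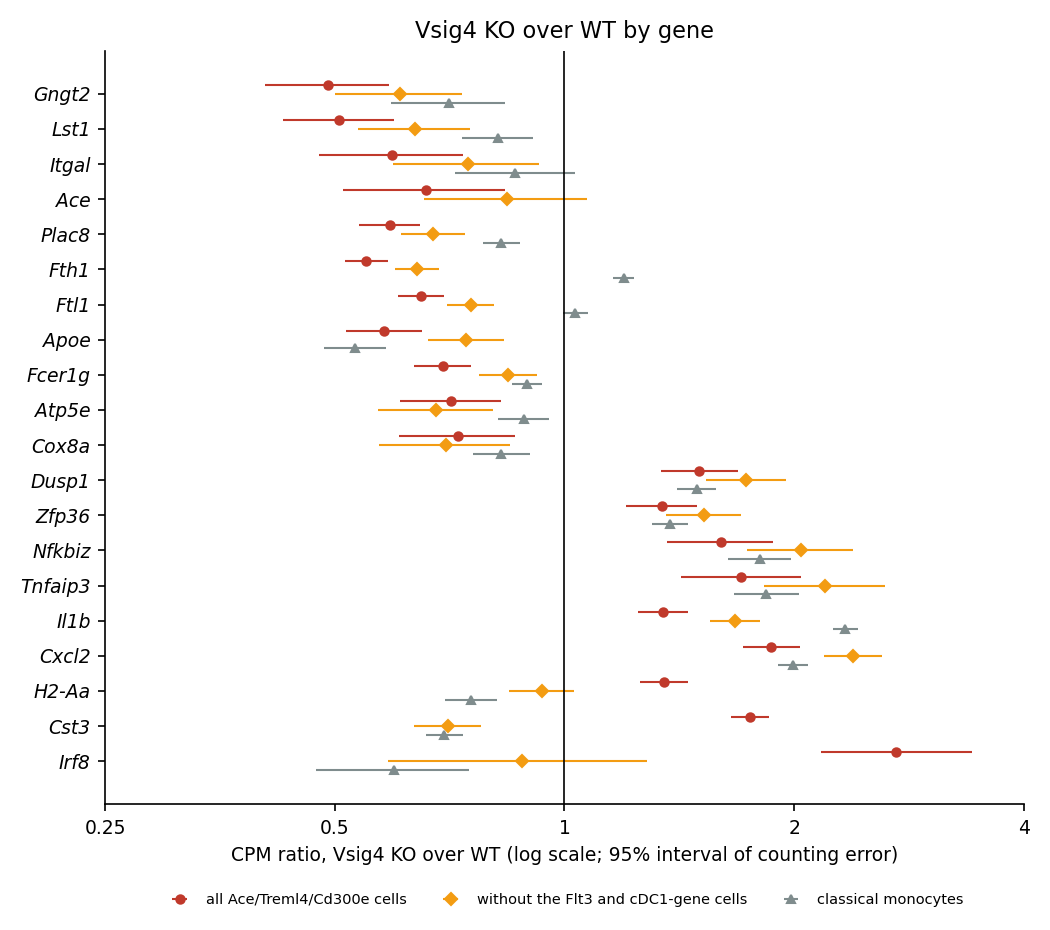
CPM ratio, Vsig4 KO over WT, on a log scale for 20 genes, in all Ace/Treml4/Cd300e cells (red circles), without the Flt3 cells (orange diamonds) and in classical monocytes (grey triangles), with 95% intervals of counting error. Dusp1 was at 1.503, 1.73 and 1.49 and Fth1 at 0.550, 0.641 and 1.20 in these 3 sets, while Cst3 and Irf8 lay above 1 in the first set only.

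Some differences rested on single cells. Type I interferon genes had 10 of 26 members higher and 1 lower in Vsig4 KO (0.25), or 13 higher and 0 lower without the Flt3 cells (0.55). A single Vsig4 KO cell held 283 of the 1037 interferon UMIs (27.3%), with 41 UMIs of Isg15, a ubiquitin-like antiviral protein, 28 of Ifit3, an interferon-induced antiviral protein, and 114 of Cxcl10, a T cell attractant. That cell had 2 Treml4 and 0 Ace UMIs and 13 Ly6c2 UMIs. Without the cell with the most interferon UMIs in each library, 3 of 23 genes were higher and 7 lower (-0.28), where 12.7% and 17.6% of all genes were. Cxcl10 was at a ratio of 2.51 with these cells and at 1.15 without them.

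MHC class II and dendritic cell genes depended on the Flt3 cells. H2-Aa was at 3813 CPM in Vsig4 KO and 2823 CPM in WT (1.35, 1.26 to 1.45), and at 0.935 (0.847 to 1.03) without these cells; Cd74, the invariant chain, was at 1.33 (1.28 to 1.39) and at 1.004 (0.952 to 1.06). Cst3, the protease inhibitor cystatin C and an abundant dendritic cell gene, was at 6660 and 3804 CPM (1.75, 1.65 to 1.85), and at 0.704 without them. Irf8, a transcription factor of monocyte and cDC1 development, was at 523 and 192 CPM (2.72, 2.17 to 3.42), and at 0.880 without them. Of MHC class I genes 0 of 16 were higher and 2 lower (0.15), or 1 higher and 3 lower without the Flt3 cells (-0.04), and B2m, their shared light chain, was at 0.682 (0.619 to 0.751; 0.808).

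The 12 genes with the highest ratios, out of those that reached 50 UMIs and were detected in 10% or more of the cells of 1 library, were Cxcl1, Ckb, Rab7b, Cd24a, Gm42031, Wdfy4, H1f2, Ifi205, Cldnd1, Slc15a2, Pnisr and Irf8. Ckb, a creatine kinase, and Wdfy4, which cDC1 need for cross-presentation, were at 5.08 and 3.09 with the Flt3 cells and at 0.647 and 0.877 without them. Cxcl1, a neutrophil attractant, was at 393 CPM in Vsig4 KO and 55.9 CPM in WT (7.02, 4.96 to 10.1), in 7 and 6 cells, and at a ratio of 1.17 with a marker sum of at least 3. Slc15a2, a peptide transporter, was at 110 and 33.8 CPM (3.25, 1.89 to 5.58; 4.15 without the Flt3 cells), and at 3.45 in classical monocytes and 10.2 in C1q-high macrophages.

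Gm42031, annotated as a lincRNA (ENSMUSG00000110386), was the most widely detected of these genes. It gave 191 UMIs in 32 of 38 Vsig4 KO cells and 150 UMIs in 74 of 148 WT cells, or 676 and 175 CPM (3.87, 3.11 to 4.82; 4.20). The median per cell was 504 CPM in Vsig4 KO and 41.9 CPM in WT. Its ratio was 4.15 in classical monocytes and 3.22 in C1q-high macrophages, so the difference was not particular to these cells.

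The 12 lowest included Chil1, Gm47283, Gbp2, Cpeb2, Bcl2a1a, Hes1, Mif, Mmp14, Fabp5, Gm34084 and Ifitm1. Chil1, a secreted chitinase-like protein (ENSMUSG00000064246, mm10 chromosome 1, 134182176 to 134190181, plus strand), gave 0 UMIs in Vsig4 KO and 360 UMIs in 64 of 148 cells in WT. It was at least 39.5-fold lower in Vsig4 KO, taking 3 counts over all 38 cells (10.6 CPM) as the limit that 0 allows, than the 419 CPM of WT. Thinned to 1000 UMIs, 0% of Vsig4 KO and 19.2% of WT cells held a Chil1 UMI, and 0% of the B cells of either library. Chil1 was also at 0 in Vsig4 KO and at 389 UMIs in WT classical monocytes, and at 0 and 42 UMIs in C1q-high macrophages, while 44 UMIs were found in Vsig4 KO and 999 in WT outside the Ace/Treml4/Cd300e cells.

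Gm47283, on chromosome Y, was at 3.54 CPM in Vsig4 KO and 71.0 CPM in WT (0.0498, 0.00124 to 0.288), and at 0.0404 in classical monocytes. Of other sex-linked genes, Xist had 0 UMIs in both libraries. The chromosome Y genes Ddx3y, Eif2s3y, Kdm5d and Uty summed to 159 CPM in Vsig4 KO and 150 CPM in WT, with Eif2s3y alone at a ratio of 0.396 (0.138 to 0.930). Hes1, a repressor downstream of Notch, the pathway by which non-classical monocytes form, was at 42.4 and 147 CPM (0.289, 0.146 to 0.523; 0.339 without the Flt3 cells), in 9 and 46 cells. Mif, a cytokine, was at 99.0 and 309 CPM (0.321, 0.209 to 0.475; 0.265). With the cells chosen by the 6 other markers, Mif was at 0.699, Fabp5 at 0.940 and Gbp2 at 0.665. Bcl2a1a, a survival factor of the BCL2 family, was at 38.9 and 142 CPM (0.274, 0.133 to 0.507), but its near-identical copies Bcl2a1b and Bcl2a1d can share its reads, and they were at 0.823 and 0.664, so its own level is uncertain.

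Gbp2, an interferon-induced GTPase, was at 17.7 CPM in Vsig4 KO and 120 CPM in WT (0.147, 0.0469 to 0.355), in 3 and 26 cells. Interferon-gamma response genes as a list had 3 of 13 members higher and 5 lower (-0.24), or 4 and 4 without the Flt3 cells (-0.21), and a median of -0.61 without the cell with the most type I interferon UMIs in each library. Cd274, which encodes the checkpoint ligand PD-L1, was at 74.3 and 122 CPM (0.607, 0.361 to 0.977; 0.776 without the Flt3 cells).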

How the data were processed

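The deposited matrices held whole-number UMI counts per gene and barcode that the authors made with Cell Ranger 7.1.0 on mm10, per the submitters' processing notes; filters applied before deposit are not given in the sources used here. Of 31253 genes, 31184 were matched by identifier to GENCODE M21. Cells were chosen from raw counts as described above, with at least 200 genes, 500 UMIs and at most 10% mitochondrial UMIs; no clustering or doublet caller was run. Members and gene lists were chosen with earlier results of these data known.

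UMIs were summed per library and scaled to CPM, which leaves each gene weighted by deep cells. No test was run, since each genotype had 1 library. Shares carry Clopper-Pearson and ratios exact conditional binomial 95% intervals of counting error. List medians use log2 of CPM plus 10. Cells were thinned to 1000 UMIs with a fixed seed. Named genes are those of the rule, the 12 highest and 12 lowest, up to 6 members of each list by UMIs, the 20 highest against other cells, and the marker genes; others were chosen after their values were seen, and 1 gene is not reported here. In total 22 alternatives were run, 4 of them added after the data had been seen. Python 3.11.15, numpy 2.4.6, scipy 1.17.1, pandas 2.3.3 and matplotlib 3.10.9 were used, and the ratio and interval code was tested on simulated data.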

Additional observations from a re-analysis of the deposited data

Results flagged for a closer look

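For 6 named genes the ratio of Vsig4 KO over WT was past 1.5-fold in opposite directions in Ace/Treml4/Cd300e cells and in classical monocytes of the same libraries. Ear2 was at 0.463 in Ace/Treml4/Cd300e cells and 1.90 in classical monocytes, Hmox1 at 0.551 and 1.84, and Irf8 at 2.72 and 0.598. Gbp2 was at 0.147 and 2.30, Bcl2a1a at 0.274 and 2.54, and Cd274 at 0.607 and 1.57. With 1 library per genotype these differences were not tested. The share over all genes is not given here, so the count is a description only. Irf8 was at 0.880 in the Ace/Treml4/Cd300e cells without the Flt3 cells. Hmox1 and Cd274 were also short of 1.5-fold without the Flt3 cells, at the ratios given above. The level of Bcl2a1a is uncertain because its near-identical copies can share its reads.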

How the results depend on the processing

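No paired analysis was possible because there was 1 library per genotype and the labels give no replicate numbers; leaving out a replicate was likewise not possible. The ratio of shares, Vsig4 KO over WT, was 0.459 with cells chosen by the 6 other markers and 0.630 as a share of myeloid cells. Genes at least 1.5-fold higher and lower numbered 49 and 85 with cells thinned to 1000 UMIs, 801 and 1025 at a minimum of 20 UMIs, and 115 and 183 at a minimum of 100 UMIs; the gene minimum itself sets how many genes enter.

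With a marker sum of at least 3, the list medians were 0.057 for non-classical monocyte and -0.040 for type I interferon genes, and the ratios 0.664 for Cst3, 0.742 for Cxcl10 and 0.591 for Wdfy4. With the 6 other markers the medians were -0.11 for MHC class II and 0.035 for glycolysis and hypoxia genes, and the ratios 3.27 for Ifitm1 and 1.04 for Eno1. Without cells that held a UMI of other lineages, Cst3 was at 0.777 and Irf8 at 0.746. As a mean over cells, the MHC class II median was -0.018. Thinned to 1000 UMIs, the medians were 0.0032 for non-classical monocyte and -0.72 for type I interferon genes, and the ratios 1.002 for Itgal, 0.576 for Irf7, 1.20 for Cpeb2, 1.23 for Eno1, 1.03 for Fn1 and 1.12 for Hspa1a. For all of these the cause was not tested.

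The 4 alternatives added after the data had been seen gave the following. The cells chosen by the 6 other markers, as a share of myeloid cells, were at a ratio of 0.943. Without the Flt3 cells the MHC class II median was -0.19, and Cst3 was at 0.704, Ckb at 0.647, Wdfy4 at 0.877 and Irf8 at 0.880. Without the cell with the most interferon UMIs in each library the type I interferon median was -0.28. Among cells with an Ace UMI the MHC class II median was -0.20, Cst3 at 0.829 and Cxcl10 at 0.749.

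Medians kept their sign under every alternative run for oxidative phosphorylation (-0.44 to -0.10), iron and heme handling (-0.86 to -0.13), lipid handling (-0.52 to -0.19), Fc receptors (-0.52 to -0.09), lysosome (-0.34 to -0.09) and early response genes (0.15 to 0.45). The Vsig4 KO values rest on 38 cells with 282750 UMIs.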
